A study of Mus musculus with 10 samples.

Results

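Genes of DNA replication and deoxynucleotide synthesis were examined in small intestine organoids, 53 of 19505 genes measured under a symbol. The members are the 54 genes of a list of replication, nucleotide synthesis and G1/S genes, taken by platform symbol, and Mcm7 was not analysed here. Each of the 53 had 1 probe set. The organoids, self-organising cultures of intestinal epithelium, were from BALB/c mice and were grown in Matrigel. All were exposed to 20 ng/ml recombinant murine TNF for 48 h. Vehicle cultures (5 arrays) received 2.625 mM PEG with the TNF, and treated cultures (5 arrays) received 5 mg/ml pegtarazimod, a PEG-linked peptide. Cultures without TNF were not analysed here, so pegtarazimod was compared with vehicle in TNF-exposed organoids throughout. Because the sources used here do not say whether replicates came from separate mice or passages, p-values measure the spread between these samples, which may be technical. A first principal component was taken over all genes after the group means were removed (33.4% of the variance). On it replicates 1 and 2 of both groups lay between -27.6 and -12.0 and replicates 3 to 5 between 8.20 and 21.2. The labels name no factor that separates them. In the order of the samples in the series, replicates 1 and 2 of both groups come before replicates 3 to 5 of either group.

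DNA replication begins with licensing, in which the origin recognition complex, Cdc6 and Cdt1 load the MCM helicase onto DNA in G1. Kinases then fire the origins, Cdc45 and GINS join the helicase, and polymerases copy DNA behind a sliding clamp with dNTPs made by ribonucleotide reductase and thymidylate synthase. Many of these genes are transcribed under E2F factors at the G1/S border. In the intestine such genes are known to be active in the dividing cells of the crypt and to be shut down as cells mature.

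The promoter sequences of 4 members are shown because many members of this list are known E2F targets. Whether E2F factors had a part in the differences was not tested. Sequences came from the RefSeq promoter table (GRCm38.p6), which holds windows of 300 bases, from 250 before to 50 after a start, and in which 44 of the 53 members had an entry. As E2F-type matches, 3 words were searched on both strands (TTTCCCGC, TTTGGCGC and TTTCGCGC). The genes shown are the 4 with the smallest p among members that passed the test and held a match in the 250 bases before the start. Only those 250 bases are printed, 5′ to 3′ along the gene's strand, with the matches in capitals.
Cdc6 (chr11:98907901-98908150, plus strand): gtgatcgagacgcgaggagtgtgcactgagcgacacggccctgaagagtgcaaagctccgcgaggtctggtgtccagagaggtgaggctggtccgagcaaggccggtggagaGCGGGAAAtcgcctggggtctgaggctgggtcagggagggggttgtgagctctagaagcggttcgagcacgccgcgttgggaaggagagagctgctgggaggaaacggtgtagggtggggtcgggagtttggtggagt
Pola1 (chrX:93632156-93632405, minus strand): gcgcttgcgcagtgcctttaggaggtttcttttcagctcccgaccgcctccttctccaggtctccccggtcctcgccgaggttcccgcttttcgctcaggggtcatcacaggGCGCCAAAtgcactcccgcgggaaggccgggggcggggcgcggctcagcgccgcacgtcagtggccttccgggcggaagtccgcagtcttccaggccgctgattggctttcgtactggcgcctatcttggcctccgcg
Mcm5 (chr8:75109259-75109508, plus strand): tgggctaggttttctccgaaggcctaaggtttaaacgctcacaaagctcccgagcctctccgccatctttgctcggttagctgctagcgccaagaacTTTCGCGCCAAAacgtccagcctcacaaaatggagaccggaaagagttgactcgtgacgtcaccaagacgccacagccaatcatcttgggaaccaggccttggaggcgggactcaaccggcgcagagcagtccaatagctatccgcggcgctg
Orc1 (chr4:108579204-108579453, plus strand): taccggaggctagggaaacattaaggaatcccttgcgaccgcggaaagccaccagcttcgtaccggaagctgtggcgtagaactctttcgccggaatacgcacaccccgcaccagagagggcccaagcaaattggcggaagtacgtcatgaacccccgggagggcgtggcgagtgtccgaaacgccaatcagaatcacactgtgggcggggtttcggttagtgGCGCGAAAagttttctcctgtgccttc

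Counting the last base before the start as -1, the match of Cdc6 (TTTCCCGC, opposite strand) and that of Pola1 (TTTGGCGC, opposite strand) both began at -138. Mcm5 held TTTCGCGC on the gene's strand from -153 and an overlapping TTTGGCGC on the opposite strand from -149. The match of Orc1 (TTTCGCGC, opposite strand) began at -27.

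An E2F-type match was found in the window of 14 of 44 members (31.8%), against 457 of 15691 array genes with an entry (2.91%). The members with one were Cdc6, Cdt1, Mcm3, Mcm5, Mcm6, Orc1, Gins3, Rfc3, Pola1, Pold1, Pole2, Lig1, Uhrf1 and E2f2. Windows of the members had a median GC content of 59.2%, and those of array genes 57.0%. CCAAT was found in 27 of 44 members (61.4%) and 42.2% of array genes, and a CHR-type word (TTTGAA or TTCGAA) in 10 of 44 (22.7%) and 19.6%. Among the 14 members with an E2F-type match the median difference, pegtarazimod minus vehicle on the log2 scale, was -0.55, and 6 of them passed the test as lower. These 14 differences ran from -0.74 to 0.64, the last being E2f2. Among the 30 without a match the median was -0.34 (range -0.74 to -0.028), and 6 passed. The members with a match included the licensing genes Cdc6, Cdt1, Mcm3, Mcm5, Mcm6 and Orc1. Licensing genes had a median difference of -0.60, and of these Mcm2, Orc2 and Orc6 had no match. Match and role were therefore not separated. A gene without these 3 words may still be an E2F target. These are descriptions of letters in a window and were not tested.

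With pegtarazimod, replication genes were lower at almost every step of the process. Of 53 members 52 had a negative difference (49.3% of all genes did), and the median difference was -0.36 against 0.00 over all genes. By limma with Benjamini-Hochberg adjustment over 19505 genes, at a threshold of 0.05, 14 members fell and 0 rose. They were 26.4% of the members, whereas 2.39% of all genes fell and 2.50% rose. At an unadjusted p below 0.05, 37 members were lower (9.65% of all genes) and 1, E2f2, was higher. The groups did not overlap for 20 members, all of them lower (3.36% of all genes were lower and 3.35% higher without overlap). In these counts and in the accounts of single members, a member passed or did not pass in the fit without a block. With the separation of replicates 1 and 2 from 3 to 5 as a block, 28 members fell (4.83% of all genes), as described further on. That separation was seen in these same values, so p-values with this block may be too small. The members share arrays, so these counts are not independent observations. In bulk RNA, fewer cells of a type and less RNA per cell cannot be told apart.

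Leaving out single arrays changed the count more than the size of the differences. The number of members that fell was 1 without vehicle 3, 3 without vehicle 4 or vehicle 5, 5 without vehicle 2 and 8 without vehicle 1. It was 5 without pegtarazimod 1, 2 without pegtarazimod 2 and 14 to 17 without any of pegtarazimod 3 to 5. Calls over all genes, in either direction, also dropped in several of these fits, from 954 with every array to 437 when vehicle 3 was left out, 498 for vehicle 4, 562 for vehicle 5, 552 for pegtarazimod 1 and 522 for pegtarazimod 2. The median difference of the members lay between -0.43 and -0.28 over these 10 fits.

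Each member's values were then centred on its mean over the 10 arrays and averaged over the members. This mean was 0.11, 0.12, 0.22, 0.22 and 0.30 on vehicle arrays 1 to 5 and -0.59, -0.36, 0.00014, 0.0053 and -0.022 on pegtarazimod arrays 1 to 5 (log2). All vehicle arrays were above all pegtarazimod arrays, and pegtarazimod 1 and 2 lay well below the other 3. Of 53 members, 42 had their lowest value on pegtarazimod 1 and 9 on pegtarazimod 2, and 46 had their highest on a vehicle array. Over all genes pegtarazimod 1 was the lowest array for 17.0%, more than any other array (7.25% to 12.3%), and pegtarazimod 2 for 9.63%. The spread followed this pattern: the median SD of a member was 0.14 in vehicle and 0.30 with pegtarazimod, and 47 of 53 had the larger SD with pegtarazimod (61.9% of all genes).

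**Figure D1:**
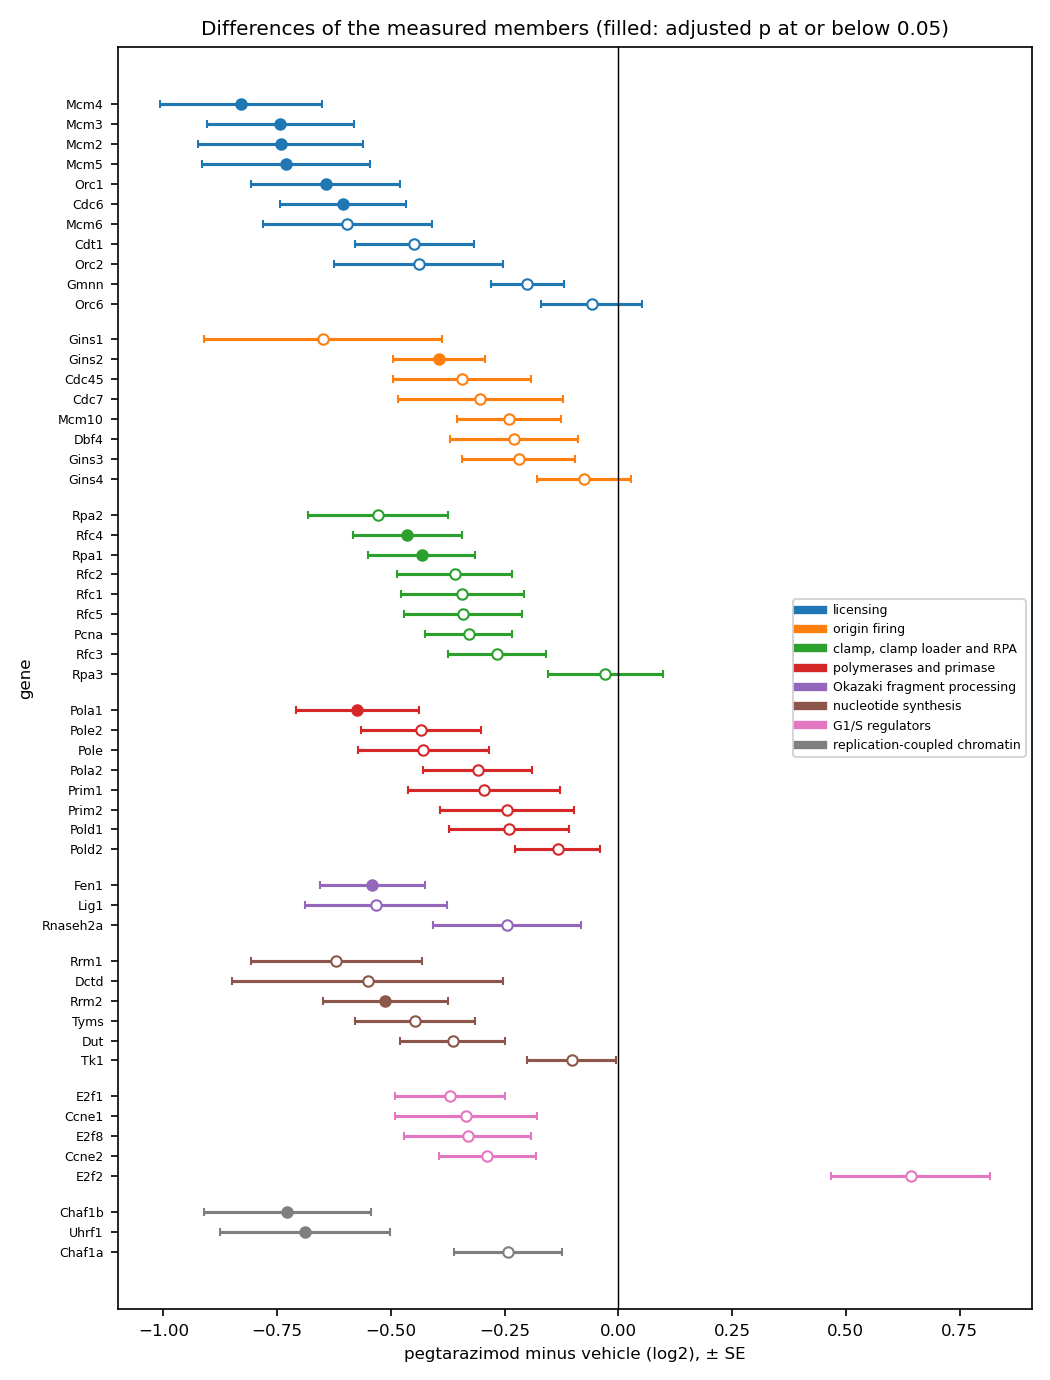
Difference of each of the 53 members, pegtarazimod minus vehicle on the log2 scale, with its SE from limma, by role. Filled points are the 14 members past the adjusted threshold, all to the left of 0, and E2f2 at 0.64 is the only point to the right of 0.

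The 3 members with the largest downward differences (Mcm4, Mcm3 and Mcm2) were licensing genes. Of 11 measured, 6 fell and 0 rose, and the median difference was -0.60. Among them were 4 subunits of the helicase ring that unwinds DNA. Mcm4 measured 8.75, 8.80, 9.0, 8.97 and 8.91 on vehicle arrays 1 to 5 and 7.41, 7.74, 8.37, 8.55 and 8.23 on pegtarazimod arrays 1 to 5. It fell by 0.83 ± 0.18 (SE), or 1.78-fold (limma adjusted p = 0.0173). No pegtarazimod array reached the lowest vehicle array, and the call was lost only without vehicle 3 (adjusted p = 0.0530) among the alternatives run.

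Mcm3 read 8.13, 8.24, 8.34, 8.33 and 8.39 in vehicle and 6.94, 7.34, 8.02, 7.73 and 7.68 with pegtarazimod, a fall of 0.74 ± 0.16 (adjusted p = 0.0179). Mcm2 read 8.69, 8.79, 8.95, 8.90 and 8.95 and 7.33, 7.99, 8.39, 8.47 and 8.40, a fall of 0.74 ± 0.18 (adjusted p = 0.0324). Mcm5 read 8.38, 8.41, 8.51, 8.60 and 8.75 and 7.12, 7.46, 8.14, 8.14 and 8.12, a fall of 0.73 ± 0.18 (adjusted p = 0.0375). The groups were separate for all 3, the lowest array was pegtarazimod 1 and the next pegtarazimod 2. Mcm6 differed by -0.60 with separate groups but did not pass (adjusted p = 0.0864, or 0.0148 with the subsets of replicates as a block). The call of Mcm3 was lost without vehicle 3 or pegtarazimod 2, that of Mcm2 without any of 5 arrays and that of Mcm5 without any of 6.

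Among the factors that load the ring, Orc1, the ATPase subunit of the origin recognition complex that cycles with growth, read 6.72, 6.48, 6.57, 6.75 and 6.86 in vehicle and 5.42, 5.93, 6.04, 6.51 and 6.27 with pegtarazimod. It fell by 0.64 ± 0.16 (adjusted p = 0.0389), although pegtarazimod 4 lay just above vehicle 2. Cdc6, the loader that Orc1 recruits, read 6.48, 6.50, 6.32, 6.31 and 6.77 and 5.47, 5.69, 6.06, 6.22 and 5.92 and fell by 0.60 ± 0.14 (adjusted p = 0.0244), with groups that did not overlap. Adjusted p exceeded 0.05 for Orc1 when any of 7 arrays was left out, and for Cdc6 when any of 4 was. The loader Cdt1 differed by -0.45 (adjusted p = 0.0688), its inhibitor geminin (Gmnn) by -0.20 (0.186), Orc2 by -0.44 (0.217) and Orc6 by -0.059 (0.841), and none of these passed. Gmnn did not overlap between groups.

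Origin firing genes differed by less. Of 8, 1 fell and 0 rose, and their median difference was -0.27. Gins2, a subunit of the GINS complex of the active helicase, read 6.36, 6.43, 6.49, 6.51 and 6.64 in vehicle and 5.87, 6.08, 6.23, 5.96 and 6.30 with pegtarazimod. It fell by 0.40 ± 0.10 (adjusted p = 0.0390) with groups that did not overlap, and the call was lost with quantile normalisation (0.05002), with median centring (0.0520) and when any of 7 single arrays was left out. The other GINS genes did not pass, with Gins1 at -0.65 (adjusted p = 0.190, or 0.00487 with the subsets of replicates as a block), Gins3 at -0.22 (0.382) and Gins4 at -0.075 (0.772). Gins1 was dim, at 3.83 on pegtarazimod 1 and 4.17 on pegtarazimod 2, the first close to the lower quartile of the arrays (3.75 to 3.82). Cdc45, the third part of the active helicase, differed by -0.34 (0.234), the firing kinase Cdc7 by -0.30 (0.411), its activator Dbf4 by -0.23 (0.423) and Mcm10 by -0.24 (0.276).

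At the fork, 2 of 9 genes of the clamp, its loader and the single-strand binding protein RPA fell and 0 rose, with a median of -0.34. Rfc4, a clamp loader subunit, read 7.52, 7.61, 7.72, 7.64 and 7.47 in vehicle and 6.84, 6.89, 7.44, 7.13 and 7.33 with pegtarazimod, and fell by 0.46 ± 0.12 (adjusted p = 0.0407). Rpa1, the large RPA subunit, read 9.03, 9.12, 9.17, 9.09 and 9.17 and 8.26, 8.58, 8.89, 8.82 and 8.86 and fell by 0.43 ± 0.12, just inside the threshold (adjusted p = 0.0497). The groups were separate for both, and the calls ended when any of 8 single arrays (Rfc4) or any of 7 (Rpa1) was left out, and for Rpa1 with median centring (0.0615).

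Pcna, the sliding clamp itself, read 11.03, 11.0, 11.08, 10.97 and 11.07 in vehicle and 10.42, 10.66, 10.78, 10.89 and 10.76 with pegtarazimod. All 5 pegtarazimod arrays were below all 5 vehicle arrays, but the difference of -0.33 ± 0.10 did not pass (adjusted p = 0.0658). Pcna passed with quantile normalisation (0.0405), with an intensity trend and robust priors (0.0251), without the dimmest 50% of genes (0.0317), when pegtarazimod 4 was left out (0.0369) and with the subsets of replicates as a block (0.0298). It did not pass in the other alternatives (adjusted p = 0.0502 to 0.158). Rpa2 (-0.53, adjusted p = 0.0670) and Rfc2 (-0.36, 0.126) also had separate groups and did not pass. Rfc1 (-0.34), Rfc3 (-0.27), Rfc5 (-0.34) and Rpa3 (-0.028) did not pass either, with adjusted p between 0.162 and 0.939.

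Of 8 polymerase and primase genes 1 fell and 0 rose, and the median was -0.30. Pola1, the catalytic subunit of the polymerase that starts new strands, read 7.77, 7.43, 7.51, 7.57 and 7.87 in vehicle and 6.79, 6.71, 7.25, 7.26 and 7.28 with pegtarazimod. It fell by 0.57 ± 0.14 (adjusted p = 0.0278), the groups did not overlap, and the call ended when any of 6 single arrays was left out. Its partner Pola2 differed by -0.31 and the primase genes Prim1 and Prim2 by -0.30 and -0.24. The leading-strand polymerase genes Pole and Pole2 differed by -0.43 and -0.43, and the lagging-strand genes Pold1 and Pold2 by -0.24 and -0.13. None of these 7 passed (adjusted p = 0.0792 to 0.500).

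Of the 3 genes that process Okazaki fragments, the short pieces of the lagging strand, the flap nuclease gene Fen1 fell. It read 8.03, 8.03, 8.29, 8.40 and 8.30 in vehicle and 7.32, 7.68, 7.78, 7.78 and 7.78 with pegtarazimod, a fall of 0.54 ± 0.12 with the smallest adjusted p of all members (0.0163). The groups did not overlap, pegtarazimod 1 lay far below the other 4, and the call was lost without vehicle 3 or vehicle 4 (adjusted p up to 0.0522). The DNA ligase gene Lig1 (-0.53, adjusted p = 0.0699) and the ribonuclease subunit gene Rnaseh2a (-0.24, 0.475) did not pass.

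**Figure D2:**
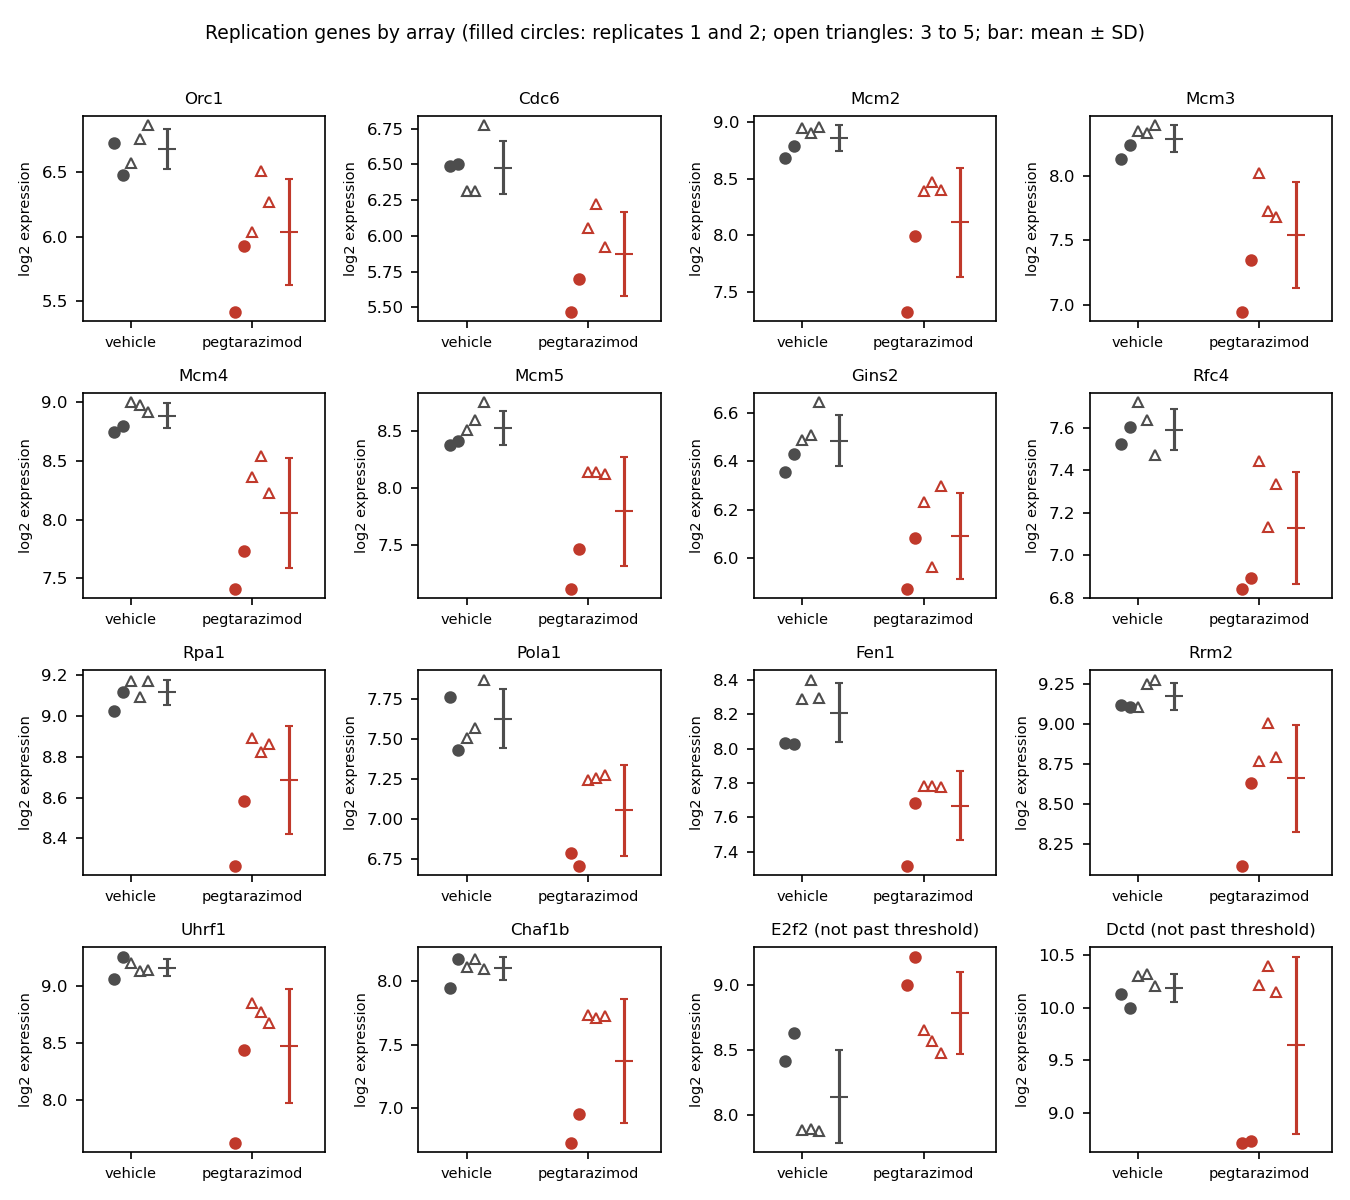
Deposited log2 expression on each array for the 14 members that fell and for E2f2 and Dctd, which did not pass, with the mean ± SD of each group beside the points; each panel has its own vertical scale. Pegtarazimod replicates 1 and 2 (filled red circles) are the 2 lowest arrays in most panels, and in the Dctd panel pegtarazimod replicates 3 to 5 lie within or just above the range of the vehicle arrays.

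Of 6 genes of deoxynucleotide synthesis 1 fell and 0 rose, with a median of -0.48. Rrm2, the subunit of ribonucleotide reductase that is made in S phase, read 9.12, 9.10, 9.11, 9.25 and 9.28 in vehicle and 8.11, 8.63, 8.77, 9.0 and 8.79 with pegtarazimod. It fell by 0.51 ± 0.14 (adjusted p = 0.0477) with separate groups, and the call was lost with median centring (0.0575) and when any of 9 single arrays was left out. Rrm1, the large subunit, differed by -0.62 and also had separate groups, but did not pass (adjusted p = 0.0800). Tyms, which makes dTMP, read 8.51, 8.22, 8.53, 8.55 and 8.68 and 7.65, 7.92, 8.16, 8.15 and 8.38, with pegtarazimod 5 above vehicle 2, and its difference of -0.45 ± 0.13 did not pass (0.0704). Dut, which removes dUTP, differed by -0.36 with separate groups (0.0924), and the salvage kinase gene Tk1 by -0.10 (0.654).

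Dctd, which deaminates dCMP to dUMP on the way to dTMP, had the most uneven values of the members. It read 10.13, 9.998, 10.30, 10.32 and 10.20 in vehicle and 8.71, 8.73, 10.21, 10.40 and 10.15 with pegtarazimod. Pegtarazimod 1 and 2 were lower than every other array by more than 1 on the log2 scale, and pegtarazimod 3 to 5 were within or above the vehicle range. Over the 10 arrays the difference was -0.55 ± 0.30 and did not pass (adjusted p = 0.353). Dctd was singled out after its values were seen.

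The G1/S regulators held the exception to the common direction. None of 5 passed the limma test over all genes, and all 5 had an unadjusted p below 0.05, 4 of them lower. E2f2, which encodes an activator of the E2F family, read 8.42, 8.63, 7.89, 7.90 and 7.88 in vehicle and 9.0, 9.22, 8.65, 8.57 and 8.48 with pegtarazimod. Vehicle 1 and 2 were above vehicle 3 to 5, and pegtarazimod 4 and 5 lay below vehicle 2, so the groups overlapped over 10 arrays. The difference of 0.64 ± 0.18 was just outside the threshold (adjusted p = 0.0516). E2f2 passed with median centring (0.0445), without the dimmest 25% or 50% of genes (0.0468 and 0.0354) and without vehicle 1, vehicle 2, pegtarazimod 4 or pegtarazimod 5, and reached 0.140 without vehicle 3.

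E2f1, another activator of the family, went the other way, with 6.69, 6.84, 6.68, 6.79 and 6.57 in vehicle and 6.0, 6.26, 6.74, 6.32 and 6.40 with pegtarazimod. Only pegtarazimod 3 lay within the vehicle range, and the difference of -0.37 ± 0.12 did not pass (adjusted p = 0.101). The repressor gene E2f8 differed by -0.33 (0.216), and the genes of cyclin E, which drives entry into S phase, by -0.33 (Ccne1, 0.262) and -0.29 (Ccne2, 0.154).

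Of the 3 genes that restore chromatin behind the fork 2 fell. Chaf1b, a subunit of the histone chaperone CAF-1, read 7.95, 8.17, 8.11, 8.17 and 8.10 in vehicle and 6.73, 6.96, 7.73, 7.71 and 7.73 with pegtarazimod and fell by 0.73 ± 0.18 (adjusted p = 0.0374). Uhrf1, which brings the maintenance DNA methyltransferase to new DNA, read 9.07, 9.26, 9.21, 9.13 and 9.15 and 7.62, 8.44, 8.86, 8.77 and 8.68 and fell by 0.69 ± 0.19 (adjusted p = 0.0491). Both had separate groups with pegtarazimod 1 lowest. Chaf1a, the large CAF-1 subunit, differed by -0.24 and did not pass (0.296). The call of Chaf1b ended when any of 6 single arrays was left out, and that of Uhrf1 when any of 7 was, with median centring (0.0543) and with an intensity trend and robust priors (0.0674).

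Given the separation of the arrays on the first principal component, differences of the members were also fitted within each subset of replicates, with the spread pooled over all arrays. The subsets were thus drawn from the same values that were fitted. P-values that use them, within subsets or as a block, may therefore be too small. Within replicates 1 and 2, 30 of 53 members fell (3.37% of all genes) and 1 rose (2.93%), and the median difference was -0.60. Within replicates 3 to 5, 4 fell (1.50%) and 1 rose (1.84%), and the median was -0.29. The 4 were Mcm3, Mcm4, Mcm5 and Fen1, which fell in both subsets, and the member that rose in both was E2f2.

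The direction held in both subsets for most members, and the size differed. Of 53 members 49 were below 0 in both, and 47 were lower in replicates 1 and 2 than in replicates 3 to 5 (51.4% of all genes). The test of the difference between the subsets passed for 1 member, Dctd (0.0256% of all genes, 5 in number, passed). At an unadjusted p below 0.05 it was met by 17 members, 32.1% of them, against 7.65% of all genes. With the subsets as a block in the fit, all 14 members that fell without it were among the 28, and E2f2 rose (adjusted p = 2.69e-04). The 14 added members were Cdt1, Mcm6, Gins1, Pcna, Rfc1, Rpa2, Pola2, Pole, Pole2, Lig1, Tyms, Rrm1, Dut and Ccne1. Their adjusted p lay between 0.00487 (Gins1) and 0.0451 (Pola2).

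For Dctd the difference was -1.34 in the first subset (adjusted p = 1.47e-04) and -0.024 in the second (0.951), with an adjusted p of 0.0357 for the difference between them. Fen1 was nearly alike in the subsets, at -0.53 (0.0423) and -0.55 (0.0177). E2f2 differed by 0.59 (0.0223) and 0.68 (0.00369), each pegtarazimod array being above the vehicle arrays of its own subset. Mcm4 differed by -1.20 (5.41e-04) and -0.58 (0.0183), and Chaf1b by -1.22 (2.56e-04) and -0.40 (0.0689), and for both the adjusted p of the difference between subsets was above 0.05 (0.414 and 0.212).

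**Figure D3:**
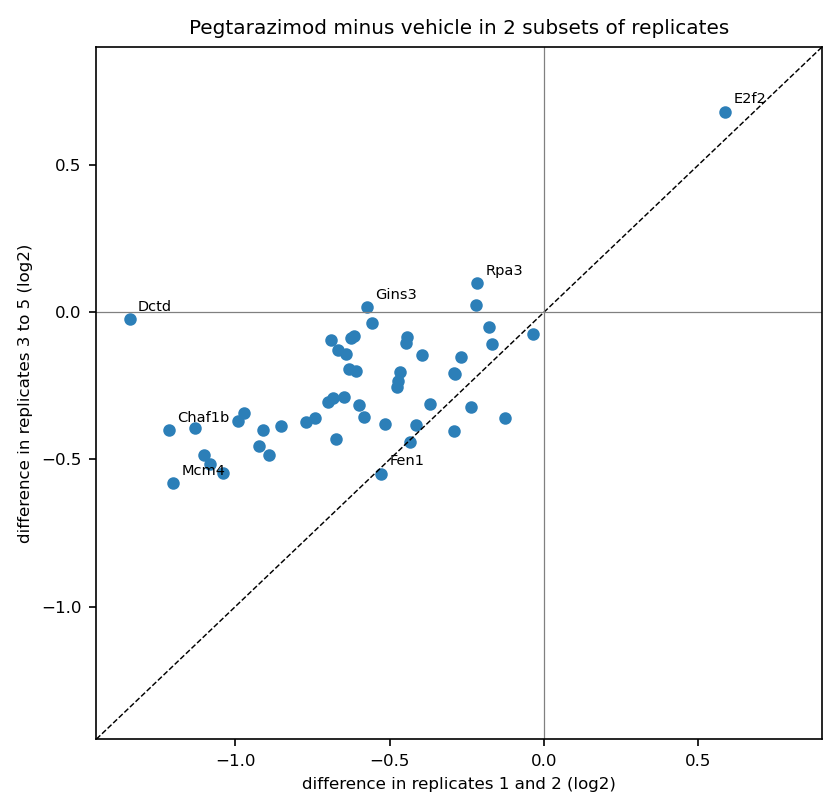
Difference of each of the 53 members (pegtarazimod minus vehicle, log2) within replicates 1 and 2 on the horizontal axis and within replicates 3 to 5 on the vertical axis, with a dashed line of equal values. Most points lie above the line, that is, further below 0 in replicates 1 and 2, with Fen1 on the line, Dctd far to the left at a vertical value near 0 and E2f2 alone at the upper right.

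Other genes of the pathway, from lists that do not share members with the 54, also differed downward. Of 30 further replisome and origin genes 4 fell and 0 rose, with a median of -0.27. Tipin, a fork protection factor, fell by 0.83 ± 0.15 (adjusted p = 0.00731), the MCM relative Mcm8 by 0.63 (0.00726) and the topoisomerase gene Top2a by 0.50 (0.0120), with separate groups for each. Of 13 genes of replication-coupled histone supply and DNA methylation 4 fell and 0 rose (median -0.41). They included Cdca7, which is also on the stem cell list, at -1.06 (0.00291), the remodeller gene Hells at -0.65 (0.0403) and the histone binding gene Rbbp4 at -0.46 (0.0240). Of 12 S phase checkpoint genes 1 fell, the ATR activator gene Etaa1 (-0.43, 0.0409), with a median of -0.34. Rad9a (-0.41, 0.0693) and the mitotic inhibitor kinase gene Wee1 (-0.45, 0.0789) did not pass.

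In the Rb and E2F pathway 4 of 25 genes fell and 0 rose, with a median of -0.14, and 18 differences were negative and 7 positive. Cdk6, a kinase that inactivates Rb, fell by 0.74 ± 0.17 (adjusted p = 0.0232), the Rb relative Rbl1 by 0.52 (0.0239) and the repressor gene E2f7 by 0.42 (0.0385). The other Rb family genes, Rb1 (0.30, 0.248) and Rbl2 (0.28, 0.104), had positive differences and did not pass. They were named after their values were seen. Myc differed by -0.58 (0.122), Cdk4 by -0.19 (0.387) and the cyclin-dependent kinase inhibitor gene Cdkn1a by -0.063 (0.896), and none of the 3 passed. Of 30 further nucleotide synthesis genes 1 fell, a share close to the 2.39% of all genes that fell, and 0 rose, with a median of -0.15. The gene that fell was the purine synthesis gene Paics (-0.56, 0.0328). Samhd1, which degrades dNTPs, was among the few with a positive difference (0.36, 0.0589), as was the adenosine kinase gene Adk (0.28, 0.0987), and neither passed.

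Beside the members, mitosis genes had much the same size of difference and stem cell genes a larger one. Of 38 mitosis genes 5 fell and 0 rose (median -0.37), led by Pttg1 (-0.53, 0.0136), Cenpf (-0.51, 0.0169) and Smc2 (-0.53, 0.0238), and Mki67 did not pass (-0.30, 0.175). Of 18 ribosome biogenesis genes 0 passed the limma test and 2 had an unadjusted p below 0.05 (median -0.17), with Rrs1 at -0.36 (0.0900), Nolc1 at -0.35 (0.123) and Dkc1 at -0.33 (0.305). Of 14 crypt stem cell genes 11 fell (median -0.99), among them Ascl2 (-1.80, 3.57e-05), Sox9 (-1.05, 1.96e-04), Rgmb (-1.0, 5.37e-04) and Lgr5 (-0.98, 0.00276). Differences between these lists were not tested.

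Between the groups, stem cell genes moved with the members and enterocyte genes moved the other way. The centred mean of 14 stem cell genes lay between 0.32 and 0.63 in vehicle and between -0.89 and -0.29 with pegtarazimod. Their median difference was -1.11 in replicates 1 and 2 and -0.85 in replicates 3 to 5. For the members these medians were -0.60 and -0.29, and the contrast between the lists was not tested. Of 20 enterocyte genes 6 rose, including Fabp2 (1.17, 0.00131), Slc15a1 (1.27, 0.00412) and Fabp1 (2.47, 0.00881). Their centred mean was -0.63 to -0.13 in vehicle, 0.96 and 0.66 on pegtarazimod 1 and 2, and 0.043 to 0.14 on pegtarazimod 3 to 5. Pegtarazimod 1 and 2, the arrays with the lowest replication genes, were thus those with the highest enterocyte genes. Among vehicle arrays, vehicle 1 had the lowest mean of the members and the highest of the enterocyte genes. The members were highest on vehicle 5, but the enterocyte genes were lowest on vehicle 3. The part of cell composition in the members' differences was not tested.

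**Figure D4:**
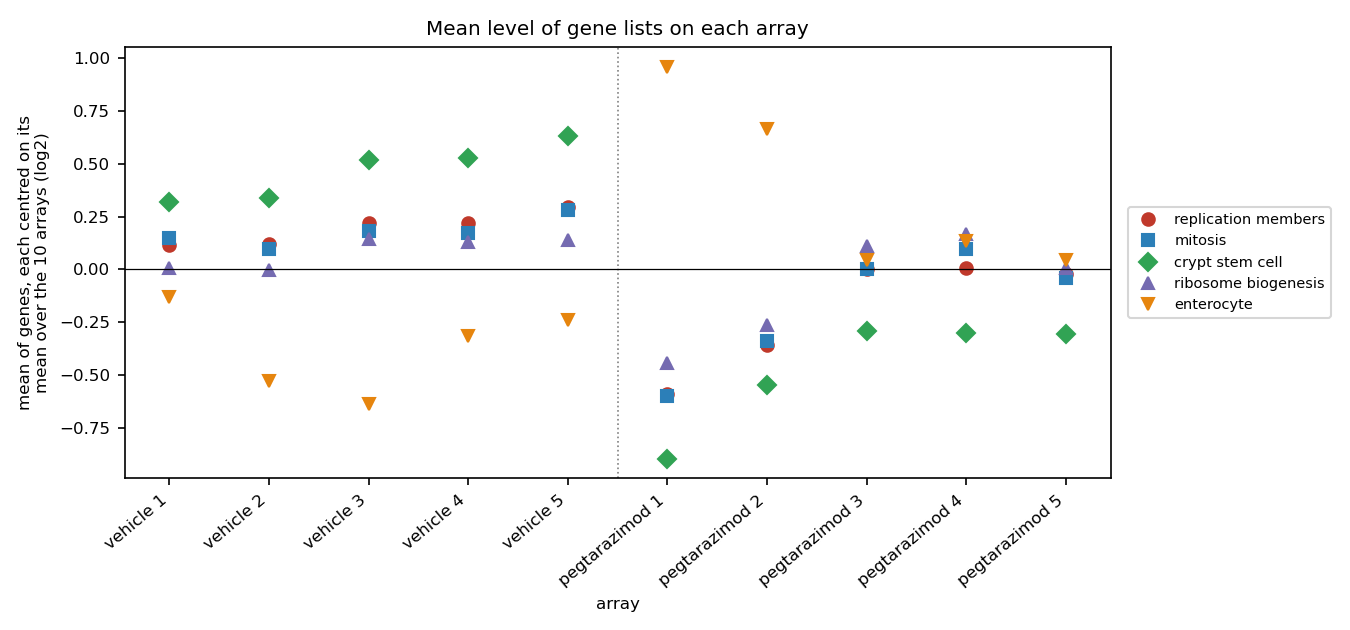
Mean of each gene list on each array after each gene was centred on its mean over the 10 arrays (log2). Replication members and mitosis genes lie close together on every array, at -0.59 and -0.60 on pegtarazimod 1, while enterocyte genes are at 0.96 there.

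The epithelial label was checked on 8 epithelial markers, which were bright on every array, with a mean of 10.42 to 10.56 in vehicle and 10.49 to 10.57 with pegtarazimod. Of the 8 one passed the test, the keratin gene Krt19, which rose by 0.33 (limma adjusted p = 0.0350) with separate groups. Means of markers of other cell types were 4.61 to 4.86 and 4.68 to 5.11 for fibroblasts (6 genes, of which Vim rose by 0.63, adjusted p = 0.0240), and 4.59 to 4.91 and 4.60 to 4.94 for immune cells (5 genes). They were 3.55 to 3.81 and 3.48 to 3.68 for endothelium (4 genes) and 3.94 to 4.14 and 3.86 to 4.17 for smooth muscle (4 genes), close to the lower quartile of the arrays at 3.75 to 3.82. None of the 53 members had a mean below that quartile. Single markers of other cell types were brighter than their list means, above the medians of the arrays (5.48 to 5.53). They were Col1a1 (means of 6.34 in vehicle and 6.48 with pegtarazimod), Vim (6.06 and 6.69) and Lyz2 (7.86 and 7.39). The other markers of these types had group means below those medians.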

How the data were processed

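RNA from 10 organoid cultures was measured on 10 single-colour arrays. The authors deposited log2 values for each probe set, made with oligo and RMA per the submitters' processing notes; the sources used here give no version or build. RMA equalises array distributions, so a shift shared by most genes would be removed. The table held 22203 probe sets, of which 19572 had 1 symbol and 2631 were unnamed and left out. Where a gene had several (55 genes), its probe set of highest mean was used. Pegtarazimod minus vehicle was estimated by lmFit and eBayes of limma 3.58.1 (R 4.3.3) without covariates, and Benjamini-Hochberg adjustment ran over 19505 genes. The number of arrays limits precision. The fit was tested on simulated data, as was the motif search. Members, lists and tests were chosen with earlier results of these data known. Every member is described; values on every array are given for members past the threshold, for the smallest p in a role with none, and for Pcna, Mcm2, Tyms, Rrm2 and E2f1, and up to 3 genes per other list are named by p, with Cdk4, Cdkn1a, Myc, Mki67 and Lgr5 besides (Ccnd1, also in the rule, was not analysed here). Alternatives were quantile normalisation, median centring, dropping the dimmest 25% or 50% of genes, a trended robust prior, array weights, blocks for the replicate number and for the subsets of replicates (1 and 2, 3 to 5), averaging probe sets, and dropping each array. Python 3.11.15 with matplotlib 3.10.9 drew the figures.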

Additional observations from a re-analysis of the deposited data

Results flagged for a closer look

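A single value stood far from the rest of its group. Fen1 on pegtarazimod 1 was 7.32, and the nearest other pegtarazimod array was at 7.68, a gap of 0.787 of the range of the group, above the critical value of 0.71 for 5 samples. It was the only such value among 106 sets of 5 arrays (53 members in 2 groups). Chance alone gives about 1 in 20 among independent sets. The members share arrays, so these sets are not independent and cannot be judged by that rate. The rule looks at 1 end value and its neighbour. It therefore misses 2 arrays that are low together, as Dctd was on pegtarazimod 1 and 2 (8.71 and 8.73).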

How the results depend on the processing

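The members' median difference stayed negative in every fit, from -0.43 to -0.28 over all alternatives. The count of members that fell, 14 in the fit reported, was 10 to 19 under quantile normalisation, median centring, both filters, an intensity trend, array weights and the mean over probe sets, and 1 to 17 on leaving out single arrays. It was 24 with a replicate block (4.22% of all genes) and 28 with replicates 1 and 2 against 3 to 5 as a block, each time with all 14 included. The replicate block added Orc2 (adjusted p = 0.0321) and 9 of the 14 members that the other block added, and not Pcna (0.0642), Rfc1, Pola2, Pole or Dut (0.0533 to 0.0869). The count of members that rose was 0 as reported, 1 with median centring, with either filter or with either block, and 0 to 1 on leaving out single arrays; the member was E2f2. Over all genes 954 changed in the fit reported. With both scalings, both filters, the intensity trend, array weights and the mean over probe sets 939 to 1296 changed. It was 1606 with the replicate block and 1820 with the other block, and 437 to 1245 on leaving out single arrays. Same-numbered replicates of both groups correlated by 0.10 to 0.31 in their deviations from group means over all genes, just below 0.1 for replicate 3 (0.0993). For vehicle replicates 1, 2, 4 and 5 the same number correlated best, narrowly for replicate 5 (0.130 against 0.129). Vehicle replicate 3 correlated better with another number (0.214). As the labels also name no pairs, the numbers were not taken as pairs in the fit reported. On leaving out single arrays Rpa3 ranged from -0.12 (without vehicle 5) to 0.056 (without pegtarazimod 1), and Cdkn1a from -0.20 (without pegtarazimod 1) to 0.045 (without pegtarazimod 5), and both changed sign. The causes were not tested.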
